A study of Rattus norvegicus with 13 samples.

Results

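Interferons are secreted proteins that cells release when they sense viral nucleic acid, and they act through surface receptors, JAK kinases and STAT and IRF transcription factors to switch on a shared set of antiviral genes. Type I interferon acts mainly through a complex that holds STAT2 and IRF9 and binds the interferon-stimulated response element, and interferon-gamma acts mainly through the gamma-activated sequence. The same signals raise the machinery that cuts proteins into peptides and loads them on class I molecules for CD8 T cells, and in the thyroid this programme is best known from autoimmune thyroiditis and from follicular cells exposed to interferon.

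The genes described here are 35 interferon response and antigen presentation genes, of 36174 gene names on the array. They were listed by name and not by a rule on their values, though with earlier results of these data known. They comprise 13 antiviral effectors, 3 RNA sensors, 5 transcription factors, 3 genes of the PARP-DTX3L group, 8 genes of antigen processing and 3 chemokines of the CXCR3 receptor. RNA was taken from the whole thyroid of 13 male Wistar rats on postnatal day 51 and labelled with Cy3 for one-colour Agilent arrays, with 6 animals in the KI-treated group and 7 in the control group. The mothers of the KI-treated group had been gavaged with potassium iodide (KI), the salt given to block uptake of radioactive iodine, at 1 mg/kg/day for 8 days from gestational day 9. The mothers of the control group received saline on the same schedule, and no animal was dosed itself after birth. The litter of each animal is not given in the sources used here, so littermates could not be told from unrelated animals. The tests treated the 13 animals as independent, and the p-values could be too small if some were littermates.

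A level is the log2 processed signal of a gene's brightest probe minus the 75th percentile of its array, so 0 is that percentile. Of the 35 genes, 32 were tested because their probe was well above background on at least 6 arrays, and 31 of these were so on all 13. Cxcl9 was well above background on 10 arrays. The 3 genes not tested were Ifit3, Cxcl11 and Oasl, whose probes were well above background on 5, 1 and 0 arrays. In whole tissue, fewer cells of a type and less RNA per cell cannot be told apart.

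The arrays differed in ways that bear on the results. Between 59.3% and 69.9% of gene spots per array were well above background, none was saturated, and precision is limited by how many arrays there were. Control 4 and control 6 stood apart from the other arrays: with each group's mean removed, the first principal component of all genes tested took 29.8% of the variance, with weights of 0.66 and 0.50 on these arrays and between -0.32 and 0.05 on the others. They also had the lowest 75th percentiles, and with KI-treated 2 and 3 they formed the first of 3 scan sessions. The main results are therefore given with and without them. The tissue label was checked on 12 markers of follicular cells, of which 11, among them Tg, Slc5a5, Pax8 and Foxe1, were well above background on all 13 arrays and Slc26a4 on 0.

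The choice of the genes did not use their sequence, so the letters of both elements were searched in their promoters. RefSeq windows on GRCr8, reaching from 250 bases before to 50 bases after the start of transcription, were matched for 28 of the 35 genes. Isg15, Mx2, Ifit2, Dhx58, Ddx58, Usp18 and Nlrc5 had no window. The core of the interferon-stimulated response element, which is GAAA, any 2 bases and GAAA again, read on either strand, was found in 18 of the 28 windows (64.3%), against 3.92% of all 33469 windows of that length. The core of the gamma-activated sequence, TTCNNNGAA, which reads the same on both strands, was found in 9 of 28 (32.1%), against 8.87% of all windows. Windows of 4 genes held both, namely Ifitm3, Oas1a, Parp14 and Psmb8, and those of 5 genes held neither, namely Mx1, Oasl, Stat2, Parp9 and Psmb9. The start used can lie inside the RefSeq span of the gene. The Parp9 window, chr11:78318962-78319261 on the minus strand, lies within the gene, which reaches to base 78320409, so that end of Parp9 was not searched. The windows of Irf7 and Irf9 also lie within their genes, which begin at base 205800543 (chr1, minus strand) and 33065422 (chr15, plus strand). A match describes the letters only and is not a shown binding site.

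The following stretches of 100 bases are examples from windows that hold a match, in genes named in the results below. Every base of a match is in capitals, and the stretches are written 5′ to 3′ on the strand of the gene. Other genes named below are not shown, among them Stat2, Parp9 and Psmb9, whose windows held no match. The first 6 end at the base before the start of transcription. Gbp2 lies at chr2:234005627-234005726 (plus strand), Ifi44 at chr2:243303841-243303940 (minus), Irf7 at chr1:205800024-205800123 (minus), Oas1a at chr12:41330366-41330465 (plus), Psmb10 at chr19:50743293-50743392 (minus) and Ifitm3 at chr1:205541759-205541858 (minus). Irf1 is shown from base -160 to -61 at chr10:38417775-38417874 (plus) and Irf9 from base -130 to -31 at chr15:33065706-33065805 (plus).
Gbp2: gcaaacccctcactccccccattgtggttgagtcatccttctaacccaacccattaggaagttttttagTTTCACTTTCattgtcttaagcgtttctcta
Ifi44: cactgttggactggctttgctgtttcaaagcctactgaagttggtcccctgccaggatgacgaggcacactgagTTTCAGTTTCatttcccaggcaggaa
Irf7: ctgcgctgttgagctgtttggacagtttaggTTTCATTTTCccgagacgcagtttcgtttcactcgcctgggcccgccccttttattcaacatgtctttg
Oas1a: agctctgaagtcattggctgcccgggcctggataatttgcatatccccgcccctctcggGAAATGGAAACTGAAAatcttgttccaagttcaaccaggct
Psmb10: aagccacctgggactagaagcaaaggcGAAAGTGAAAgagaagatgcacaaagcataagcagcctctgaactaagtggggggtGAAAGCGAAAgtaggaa
Ifitm3: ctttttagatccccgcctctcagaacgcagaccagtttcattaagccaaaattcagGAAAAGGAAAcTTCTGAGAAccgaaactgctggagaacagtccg
Irf1: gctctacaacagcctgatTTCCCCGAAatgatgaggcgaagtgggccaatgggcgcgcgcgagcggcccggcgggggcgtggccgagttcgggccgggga
Irf9: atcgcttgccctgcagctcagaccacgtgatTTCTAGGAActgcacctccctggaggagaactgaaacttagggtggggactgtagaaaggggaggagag
In Gbp2, Ifi44 and Irf7 the capitals are 1 response element core read on the opposite strand. In Oas1a a pair of overlapping cores shares the middle GAAA, and Psmb10 holds 2 separate cores. Ifitm3 holds a response element core followed by a gamma-activated core, which starts 33 bases before the start of transcription. Irf1 and Irf9, which encode transcription factors of the pathway itself, held the gamma-activated core only.

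**Figure D1:**
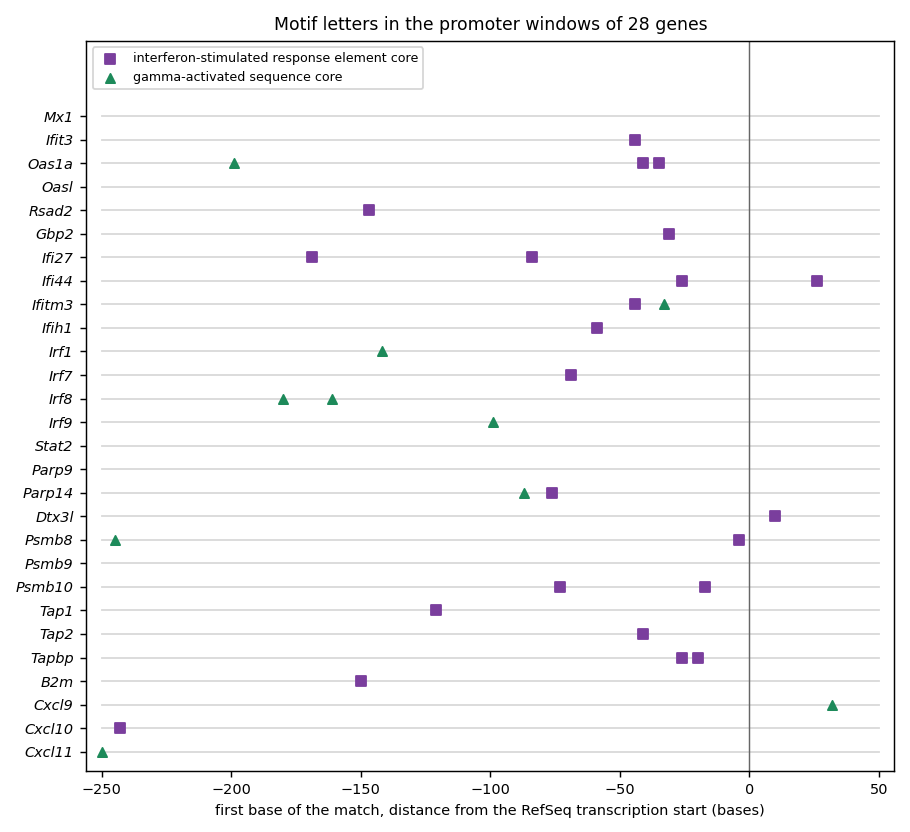
Matches in the RefSeq promoter windows of 28 genes, with the distance of the first base of each match from the start of transcription in bases on the x axis and a row per gene. Squares are the response element core and triangles the gamma-activated core. The squares lie between bases -243 and 26 and are present in 18 of the 28 rows.

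The comparison of KI-treated with control animals asks whether KI given to the mother left a lasting difference in the thyroid of the young rat. Of the 32 genes tested, 0 passed the adjusted threshold of 0.05 in limma, as did 0 of all 25713 probes (0.0%), and the lowest adjusted p among the genes was 0.342. Without adjustment, 2 genes were past 0.05 on the higher side, Usp18 and Ifitm3, against 5.71% of all probes. On the lower side 1 gene was, Cxcl9, against 7.01% of all probes. These counts are 6.25% and 3.12% of the 32 genes, near or under the shares of all probes. The balance of the probes depended on the scaling, since 44.9% of those past 0.05 were higher here and 25.4% to 61.7% under other scalings. The KI-treated and control animals overlapped in all 32 genes, and they did so in all but 0.587% of the probes. Log2 differences, KI-treated minus control, ranged from -0.54 in Tap2 to 0.93 in Ifitm3, and 26 of the 32 were smaller than 0.35 in size. Their standard errors ranged from 0.11 to 0.55 with a median of 0.20, so the absence of adjusted calls does not show that these genes were unchanged. Their median was -0.08, equal to the median of all probes (-0.08).

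The 2 arrays that stood apart set the sign of many of these small differences. Control 4 or control 6 had the highest value of all 13 animals in 21 of the 32 genes and the lowest in 6. With all animals 21 differences were below 0 and 11 above, beside 15612 below and 10101 above among all 25713 probes. Without control 4 and control 6 there were 8 below and 24 above. The median of the genes was then 0.14, with that of all probes at -0.01. Again 0 genes passed the adjusted threshold, and Usp18 and Ifitm3 were the 2 past an unadjusted 0.05 on the higher side (3.46% of all probes), with 0 on the lower side (5.92% of all probes). Among the KI-treated animals, KI-treated 3 had the highest value in 16 of the 32 genes. The shares of all probes with their highest or lowest value in these animals are not given, so these counts cannot be judged against them.

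**Figure D2:**
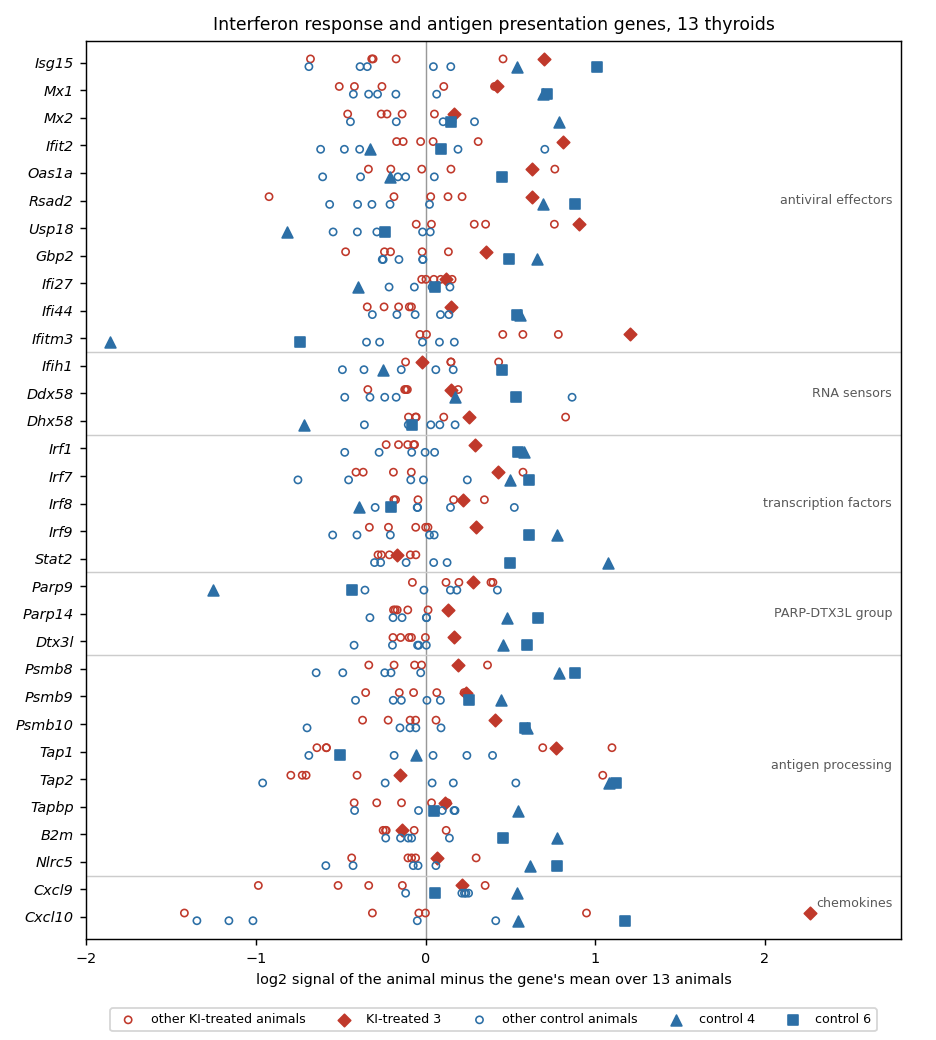
Log2 signal of each animal minus the gene's mean over 13 animals (x axis) for the 32 genes tested (rows, grouped by role), with KI-treated animals in red and control animals in blue. Control 4 (triangles) and control 6 (squares) hold the highest value in 21 of the 32 rows and lie at the left in Ifitm3 and Parp9.

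**Figure D3:**
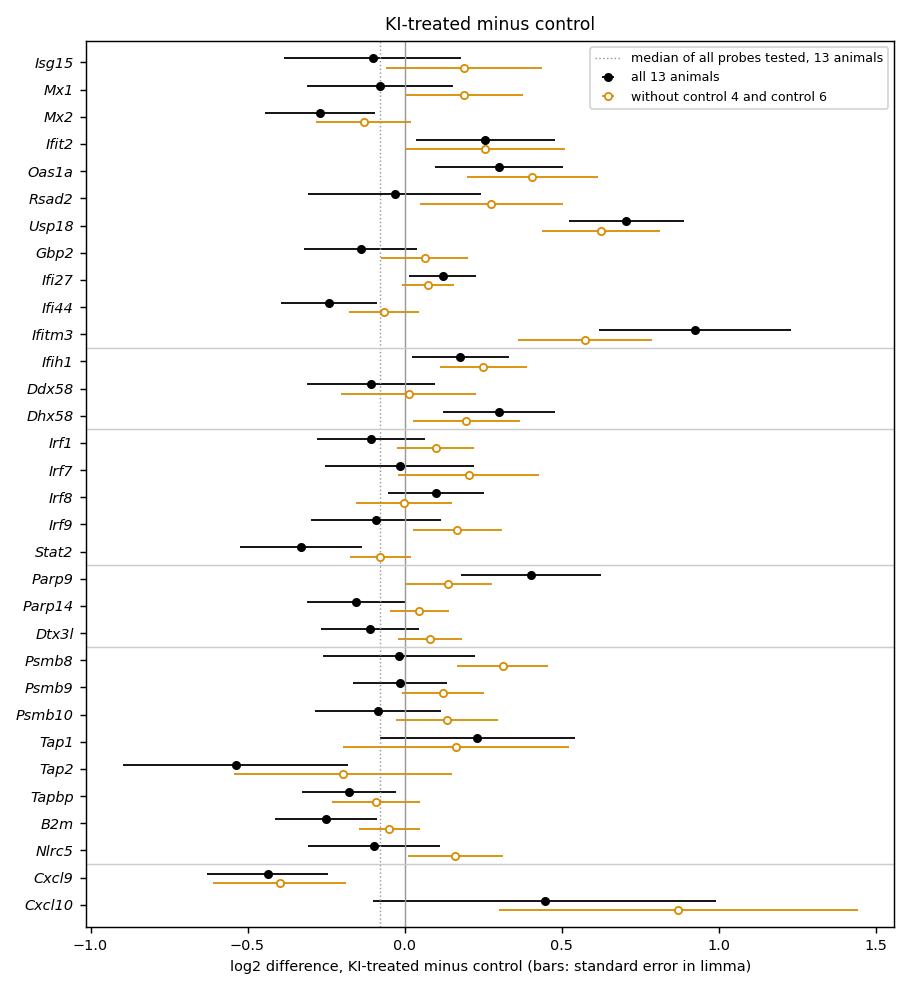
Log2 difference, KI-treated minus control, with its standard error in limma for the 32 genes tested, over all 13 animals (filled) and without control 4 and control 6 (open). Ifitm3 at 0.93 and Usp18 at 0.71 lie farthest to the right over all animals, and 14 genes pass from below to above 0 when the 2 control animals are left out.

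Among the antiviral effectors, 11 of 13 were tested, 5 with a difference above and 6 below 0. Usp18 encodes the protease that removes ISG15 from its targets and damps signalling at the type I interferon receptor. Its level was -1.62, -1.24 and -0.66 (lowest, median and highest) in the KI-treated group and -2.38, -1.85 and -1.54 in the control group. All 6 KI-treated animals lay above the control median, and KI-treated 2 below the highest controls. The log2 difference was 0.71 (standard error 0.18, adjusted p = 0.342 in limma; exact permutation p = 0.0035, n = 6 and 7). It was 0.63 without control 4 and control 6, and 0.95, 0.22 and 1.17 within the 3 scan sessions.

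Ifitm3 encodes a membrane protein that blocks the fusion of viruses in endosomes. Its level was 2.46, 3.0 and 3.70 in the KI-treated group and 0.63, 2.22 and 2.66 in the control group, the lowest values being those of control 4 and control 6. The difference of 0.93 (standard error 0.31, adjusted p = 0.353 in limma; exact permutation p = 0.0111) fell to 0.58 without these animals. Within the scan sessions it was 2.30, 0.06 and 0.67, so most of it came from the session that held control 4 and control 6. Its dimmer probe was not tested.

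Isg15 encodes the ubiquitin-like protein that is conjugated to other proteins after interferon. Its level was 0.07, 0.50 and 1.44 in the KI-treated group and 0.06, 0.79 and 1.76 in the control group. KI-treated 3 and 4 and control 4 and 6 were the high animals, and the group means differed by -0.10 (standard error 0.28, exact permutation p = 0.752). Without control 4 and control 6 the difference was 0.19. Animals of one group thus differed more than the groups: the highest animal was 3.25-fold above the lowest.

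The other 8 effectors tested differed by -0.27 to 0.30 on the log2 scale, with exact permutation p-values of 0.145 to 0.915. They were Mx1 and Mx2, which encode dynamin-like GTPases that trap viral particles, Ifit2, which encodes a binder of viral RNA, and Oas1a, which encodes a synthetase that activates RNase L. The rest were Rsad2, which encodes viperin, Gbp2, a guanylate-binding protein, and Ifi27 and Ifi44. Oas1a had the most positive difference, 0.30 (standard error 0.20), and Mx2 the most negative, -0.27 (standard error 0.17). A dimmer probe of Mx2, well above background on 9 arrays, gave -1.59 (standard error 0.58, unadjusted p = 0.0153 and adjusted p = 0.358 in limma) and did not follow the brighter one across animals (r = -0.08). The probes of Oas1a and of Ifi44 did follow each other (r = 0.95 and 0.91). Ifi27 varied least between animals, with 1.47-fold between the highest and the lowest, and Rsad2 varied 3.49-fold.

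The RNA sensors Ifih1 (MDA5), Ddx58 (RIG-I) and Dhx58 (LGP2) recognise viral RNA in the cytoplasm. Dhx58 had the smallest p of the 3, with levels of -1.63, -1.50 and -0.70 in the KI-treated group and -2.24, -1.61 and -1.35 in the control group. KI-treated 6 was the high animal and control 4 the low one, and the difference was 0.30 (standard error 0.18, exact permutation p = 0.138). Ifih1 differed by 0.18 (standard error 0.15) and Ddx58 by -0.11 (standard error 0.20).

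Of the 5 transcription factors, 4 had a difference below 0, as did 15612 of all 25713 probes, and none was past an unadjusted 0.05. Stat2, whose product joins IRF9 on the response element, had levels of 3.82, 3.92 and 4.05 in the KI-treated group and 3.80, 4.15 and 5.18 in the control group. All KI-treated animals lay within a narrow band below the control median, and control 4 and control 6 were the high animals. The difference was -0.33 (standard error 0.19, exact permutation p = 0.127) and -0.08 without them.

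Irf7, the factor that amplifies interferon-alpha production, had levels of 0.60, 0.88 and 1.59 in the KI-treated group and 0.26, 1.0 and 1.62 in the control group. The means differed by -0.02 (standard error 0.24, exact permutation p = 0.948), and the value turned to 0.20 without control 4 and control 6. Irf1, Irf8 and Irf9 differed by -0.11, 0.10 and -0.09, with standard errors of 0.17, 0.15 and 0.21, and a second probe of Irf8 (-0.02) and of Irf9 (0.14) had the opposite sign. Irf1, an early target of interferon signalling, reached 3.75 in KI-treated 3, where the next KI-treated animal was at 3.39.

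**Figure D4:**
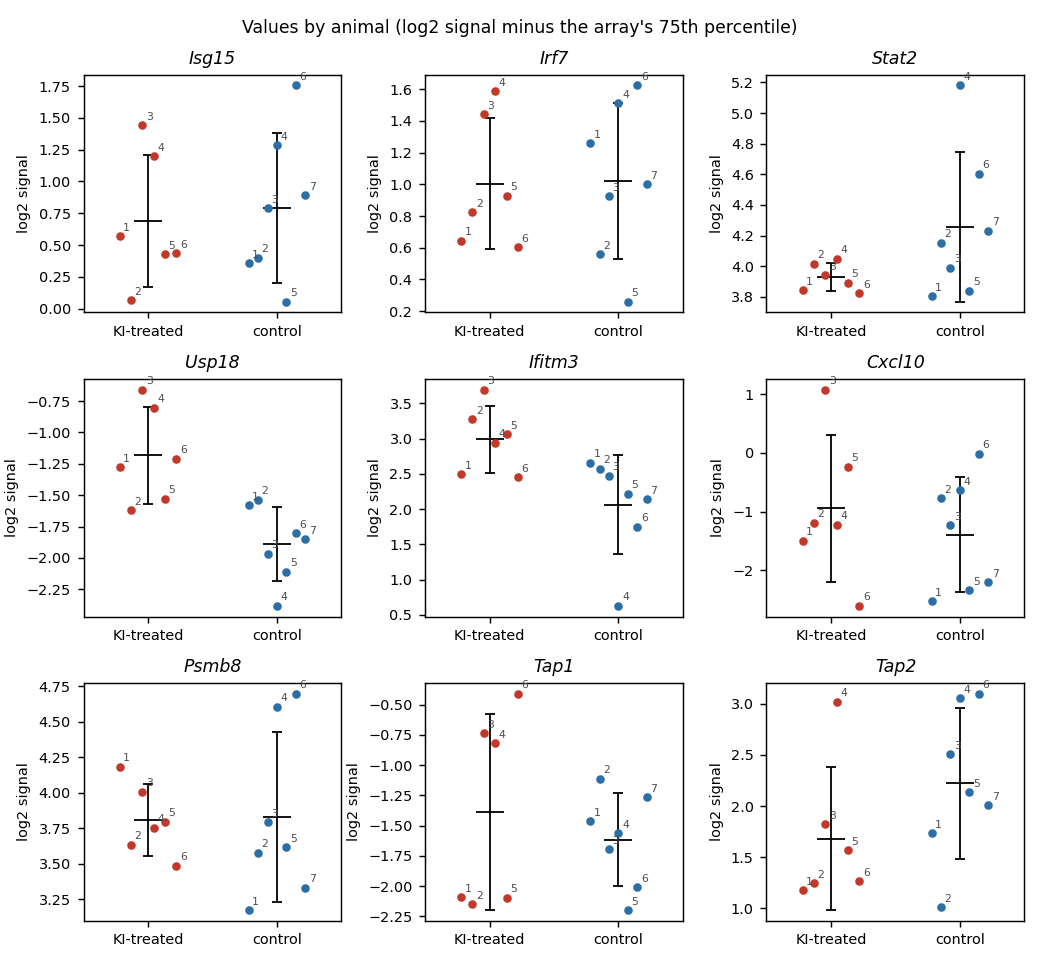
Levels of 9 genes by animal, as log2 signal minus the 75th percentile of the array, with the KI-treated group in red, the control group in blue, the replicate number beside each point, and the mean with its standard deviation in black. Isg15 spans 0.06 to 1.76 and Cxcl10 -2.61 to 1.08, with both groups overlapping in all 9 panels.

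PARP9, PARP14 and DTX3L are ADP-ribosyltransferases and a ubiquitin ligase that work on STAT signalling and DNA repair, and PARP9 and DTX3L form a heterodimer. Parp9 had levels of -1.10, -0.78 and -0.62 in the KI-treated group and -2.27, -1.03 and -0.59 in the control group. Control 4 was the lowest animal by far, and the difference of 0.40 (standard error 0.22, exact permutation p = 0.11) was 0.14 without control 4 and control 6. Parp14 and Dtx3l differed by -0.15 (standard error 0.16) and -0.11 (standard error 0.16).

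The antigen processing genes encode the inducible proteasome subunits Psmb8, Psmb9 and Psmb10, the peptide transporter Tap1 and Tap2, its tether to class I Tapbp, the class I light chain B2m and the class I transactivator Nlrc5. Of these 8, 7 had a difference below 0, as did 15612 of all 25713 probes, and none was past an unadjusted 0.05. B2m had the smallest exact p, with levels of 6.53, 6.60 and 6.90 in the KI-treated group and 6.55, 6.70 and 7.56 in the control group. Control 4 and control 6 were again the high animals, and the difference of -0.25 (standard error 0.16, exact permutation p = 0.163) was -0.05 without them.

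Tap2 varied most of the 8 between animals, with 4.24-fold between the highest and the lowest. Its level was 1.18, 1.42 and 3.02 in the KI-treated group and 1.01, 2.14 and 3.1 in the control group. KI-treated 4 and control 4 and 6 were above 3, and both probes of the gene followed each other (r = 0.75). The difference was -0.54 (standard error 0.36, exact permutation p = 0.205) and -0.20 without control 4 and control 6.

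Tap1, the partner of Tap2, had levels of -2.15, -1.46 and -0.41 in the KI-treated group and -2.20, -1.56 and -1.11 in the control group. KI-treated 3, 4 and 6 lay between -0.82 and -0.41, above all controls, and KI-treated 1, 2 and 5 between -2.15 and -2.09, a split that a second probe also showed (r = 0.94 between the probes). The group means differed by 0.23 (standard error 0.31, exact permutation p = 0.507).

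Psmb8 had levels of 3.48, 3.78 and 4.18 in the KI-treated group and 3.17, 3.62 and 4.70 in the control group, a difference of -0.02 (standard error 0.24, exact permutation p = 0.948). A dimmer probe of the same gene gave 0.56 (standard error 0.16, unadjusted p = 0.00327 and adjusted p = 0.353 in limma). The probes were unrelated across the 13 animals (r = -0.13) and related without control 4 and control 6 (r = 0.74), where the brighter probe gave 0.31 (standard error 0.15). The direction for Psmb8 therefore depends on the probe. Psmb9, Psmb10, Tapbp and Nlrc5 differed by -0.01, -0.08, -0.18 and -0.10.

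Cxcl9, Cxcl10 and Cxcl11 are interferon-induced chemokines that draw T cells through CXCR3. Cxcl9 had levels of -4.68, -3.93 and -3.35 in the KI-treated group and -3.81, -3.47 and -3.16 in the control group, with KI-treated 2, 4, 5 and 6 below all controls. The difference was -0.44 (standard error 0.19, unadjusted p = 0.0399 and adjusted p = 0.387 in limma; exact permutation p = 0.0513) and -0.40 without control 4 and control 6. It was below 0 in each scan session (-0.26, -0.56 and -0.63). This probe was well above background on 10 of 13 arrays, so its low values depend on the background subtraction.

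Cxcl10 had the widest range of the 32 genes, 12.9-fold from -2.61 in KI-treated 6 to 1.08 in KI-treated 3. Its lowest, median and highest levels were -2.61, -1.21 and 1.08 in the KI-treated group and -2.53, -1.24 and -0.01 in the control group. The means differed by 0.45 (standard error 0.55, exact permutation p = 0.483), less than the standard deviation of either group (1.25 and 0.98). Cxcl11 was well above background on 1 array, that of KI-treated 3, where Cxcl10 was highest.

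The genes were next compared with each other across the 13 animals, after the mean of each group had been subtracted, so that a difference between the groups could not make genes vary together. Over the 496 pairs of the 32 genes the median Pearson r was 0.40, against 0.03 over all pairs of 20673 genes tested. A total of 109 pairs (22.0%) reached an r of 0.7 or more, against 6.59% of all pairs. At the other end, 6 of the 496 reached -0.7 or less, against 4.87% of all pairs (10405704 of 213676128). The count was 17 without KI-treated 3 and 1 without control 4, where all pairs were not counted. It was 0 without control 4 and control 6, against 4989543 of all 213841540 pairs. With the slide as a block it was 33, against 20114788 of 213676128. In control animals alone it was 37, against 24098505 of 214193253. By permutation within groups and Benjamini-Hochberg adjustment over the 496 pairs, 83 pairs were past 0.05 by Pearson's r and 42 by Spearman's rho. The genes share the scaling of each array, which moves all genes of an animal together, and all pairs share that scaling too.

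Control 4 and control 6 carried part of this co-variation. Without them the median r was 0.28, against 0.01 over all pairs, and 38 pairs (7.66%) reached 0.7, against 2.86%. In the 6 KI-treated animals alone the median was 0.41 and 116 pairs reached 0.7, against 8.56% of all pairs. In the 7 control animals alone the median was 0.45 and 154 pairs did so, against 14.2% of all pairs. Of the 83 pairs past 0.05, 23 kept an r of 0.7 or more without control 4 and control 6.

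**Figure D5:**
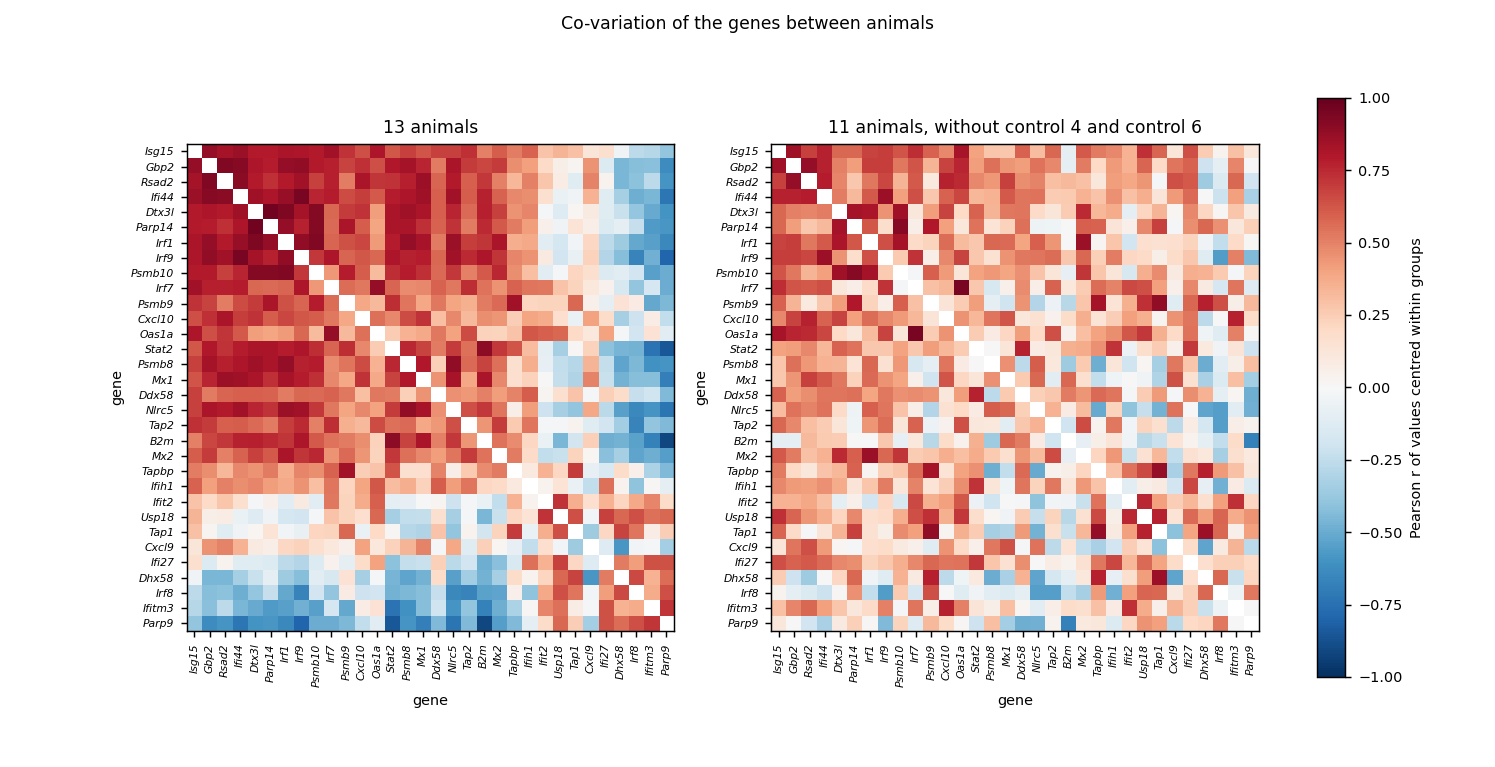
Pearson r between the 32 genes tested, after each group's mean was subtracted, over 13 animals (left) and over 11 animals without control 4 and control 6 (right), with red for positive and blue for negative r and genes in the same order on all axes. The red block from Isg15 to Nlrc5 on the left is paler on the right, where 38 pairs and not 109 reach 0.7, and the blue rows of Ifitm3, Irf8 and Parp9 on the left hold both signs on the right.

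The pair of largest r was Parp14 and Dtx3l (r = 0.96, rho = 0.85, adjusted permutation p = 0.00921 and 0.03). It kept an r of 0.83 without control 4 and control 6, which were also the 2 animals farthest from the median. Ifi44 and Irf9 followed with 0.95 (rho = 0.86, adjusted permutation p = 0.00921 and 0.03, and r = 0.85 without these 2). Irf1 and Dtx3l reached 0.93 (rho = 0.73, adjusted permutation p = 0.0174 and 0.0747, and 0.81 without them). Irf1 and Psmb10 also reached 0.93 (rho = 0.73, adjusted permutation p = 0.0168 and 0.0796, and 0.83 without them). Rsad2 and Gbp2 reached 0.93 (rho = 0.90, adjusted permutation p = 0.00921 and 0.0198) and kept 0.93 without KI-treated 6 and control 6, the animals farthest from the median of Rsad2. These pairs are made up of genes of the PARP-DTX3L group, antiviral effectors, transcription factors and an immunoproteasome subunit.

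Isg15 had the highest mean r with the other 31 genes, 0.52, followed by Gbp2 (0.48), Rsad2 (0.48) and Ifi44 (0.47). Isg15 and Irf7 correlated at 0.84 (rho = 0.77, adjusted permutation p = 0.0228 and 0.0505) and at 0.77 without the 2 farthest animals, KI-treated 3 and control 6. Irf9 and Stat2, whose products sit in the same complex, correlated at 0.81 (rho = 0.81, adjusted permutation p = 0.0473 and 0.0479) and at 0.84 without the farthest animals, control 2 and control 4, yet at 0.27 without control 4 and control 6. Nlrc5 and B2m, a regulator and its target, correlated at 0.71 (rho = 0.69, adjusted permutation p = 0.111 and 0.122), and at 0.08 without these animals, so that relation rests on them. The promoters of Gbp2, Ifi44, Rsad2 and Irf7 held a response element core, and so did those of Ifitm3 and Ifi27. The median r of Ifitm3 and Ifi27 with the other genes was -0.32 and -0.12 over 13 animals, and 0.19 and 0.40 without control 4 and control 6. The windows of Irf9, Irf1 and Stat2 held no such core, and their median r over 13 animals was 0.71, 0.67 and 0.62. Isg15 had no window.

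Over all 13 animals some genes of the programme did not vary with the rest. Parp9 had a mean r of -0.30 with the other genes, Ifitm3 -0.19, Irf8 -0.16 and Dhx58 -0.08. Parp9 and B2m had the most negative r of all pairs, -0.91 (rho = -0.90, adjusted permutation p = 0.0222 and 0.03), with -0.84 when control 2 and control 4, the farthest animals, were left out and -0.67 without control 4 and control 6. Parp9 and Dtx3l, whose products form a heterodimer and whose genes are neighbours in RefSeq, correlated at -0.60 (rho = -0.57, adjusted permutation p = 0.232 and 0.208) at -0.48 without the 2 farthest animals, control 2 and control 4, and at 0.09 without control 4 and control 6. Over 13 animals the median r with the other genes was -0.45 for Parp9, -0.32 for Ifitm3, -0.26 for Irf8 and -0.16 for Dhx58. Without control 4 and control 6 this median was 0.04 for Parp9, 0.19 for Ifitm3, -0.05 for Irf8 and 0.09 for Dhx58.

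Neighbouring genes were not uniformly related. Parp14 and Dtx3l, the pair of largest r (0.96, and 0.83 without control 4 and control 6), have 1 RefSeq gene between them. Parp9, next to Dtx3l, was at -0.60 with it. Psmb9 and Tap1 lie next to each other in RefSeq, and their promoter windows on GRCr8 overlap on opposite strands. They correlated at 0.57 (rho = 0.57, adjusted permutation p = 0.109 and 0.131), at 0.62 without the 2 farthest animals and at 0.89 without control 4 and control 6. Tap1 and Psmb8, also neighbours, had an r of -0.29 (rho = -0.34, adjusted permutation p = 0.346 and 0.328), and Tap1 and Tap2, whose products form 1 transporter, 0.04 (rho = 0.11, adjusted permutation p = 0.952 and 0.847, and 0.08 without the 2 farthest animals). Psmb8 and Psmb9 correlated at 0.54 (rho = 0.40, adjusted permutation p = 0.215 and 0.371) and at -0.10 without control 4 and control 6. Mx1 and Mx2 correlated at 0.48 (rho = 0.32, adjusted permutation p = 0.249 and 0.475) and at 0.16 without the same animals. Cxcl9 and Cxcl10 correlated at 0.40 (rho = 0.29, adjusted permutation p = 0.374 and 0.533) and at 0.34 without KI-treated 1 and 6. The pair of Ifit2 and Ifit3 had no value because Ifit3 was not tested.

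The rest of the pathway was described from lists of its genes. Of 26 genes tested for interferon ligands, receptors and signalling, 1 was past an unadjusted 0.05 on the higher side and 0 on the lower. That gene was Tbk1, a kinase that activates IRF3, which differed by 1.67 (standard error 0.66, exact permutation p = 0.0117) and was well above background on 8 arrays. Its level was 0.76 in KI-treated 2 and -3.65 to -2.92 in the other KI-treated animals, and -5.67 in both control 4 and control 6. The difference was 0.98 without KI-treated 2 and 1.14 (standard error 0.70, unadjusted p = 0.128 in limma) without control 4 and control 6, where 0 of the 26 genes were past an unadjusted 0.05. Among the ligand genes, Ifna4 was well above background on all 13 arrays with a difference of -0.15 (standard error 0.17), Ifna1 on 7, Ifna2 and Ifnb1 on 1 each and Ifng on 0. The receptor genes Ifnar1, Ifnar2, Ifngr1 and Ifngr2 were so on all 13, with differences of -0.12 to 0.15.

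Of 38 other interferon-stimulated genes tested, 5 were past an unadjusted 0.05 on the higher side (13.2%) and 1 on the lower (2.63%), beside 5.71% and 7.01% of all probes. The higher ones were Irgm (0.89, exact permutation p = 0.00699), Ifi47 (1.18, exact p = 0.0344), Nmi (0.31, exact p = 0.00466), Slfn2 (0.59, exact p = 0.0321) and Oas1k (0.59, exact p = 0.0332). The lower one was Sp100 (-0.36, exact p = 0.0152), which encodes a nuclear body protein. Irgm and Ifi47 encode immunity-related GTPases and Oas1k a paralogue of Oas1a, so its probe may share signal with near copies. Their lowest adjusted p in limma was 0.353, and the median of the 38 differences was -0.02. Control 4 and control 6 were the lowest of the 13 animals in Irgm, Ifi47 and Slfn2 and the highest in Sp100. Without them 3 of the 38 genes were past an unadjusted 0.05 on the higher side (7.89%, beside 3.46% of all probes) and 0 on the lower (5.92% of all probes). Those 3 were Irgm (0.52), Nmi (0.23) and Oas1k (0.62), while Ifi47 was at 0.49, Slfn2 at 0.23 and Sp100 at -0.18. Leaving out control 4 alone brought Slfn2 to 0.37.

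Of 33 class I and other antigen processing genes tested, 0 were past an unadjusted 0.05 in either direction in limma, with 20 differences above and 13 below 0 and a median of 0.12. The smallest p was that of RT1-T24-4, a class Ib gene, with a difference of -0.64 (standard error 0.31, unadjusted p = 0.0542 and adjusted p = 0.397 in limma), or -0.52 without control 4 and control 6. In that setting 1 of the 33 was past an unadjusted 0.05, the chaperone gene Calr on the lower side (-0.72 against -0.31 over all animals). Class I heavy chain genes of the rat RT1 region are near copies of each other and their probes cannot be taken as separate genes. The standard proteasome subunits that Psmb8, Psmb9 and Psmb10 replace are Psmb5, Psmb6 and Psmb7. Psmb5 and Psmb6 differed by -0.01 and 0.03, and Psmb7 by 0.64 (standard error 0.26, exact permutation p = 0.035), or 0.27 (standard error 0.13) without control 4 and control 6, its lowest animals.

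Outside the lists, the 10 genes that varied most like the antiviral effectors had a mean r of 0.50 to 0.54 with the 11 effectors over 13 animals. They included 2 probes for interferon-inducible GTPases (LOC102549198 and MGC108823) and the immediate-early factor Atf3, with Enpep, Magi3, Olr472, RGD1563091, LOC102548838 and 2 transcripts that the array lists by an Ensembl identifier. Among all the lists, Rtp4, an interferon-stimulated chaperone gene, was closest, at 0.55 and at 0.68 without control 4 and control 6.

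Leukocytes express these genes strongly, so their markers are given beside the co-variation. Ptprc, the pan-leukocyte gene CD45, reached an r of 0.7 with 1 of the 32 genes, Cd68 of macrophages with 0, Pecam1 of endothelium with 8 and Tg of follicular cells with 3. The share of all genes that reached 0.7 with each marker is not given, so these counts cannot be judged against it. Over all animals the median r with the genes was 0.14 for Ptprc, 0.37 for Cd68, 0.58 for Pecam1 and 0.34 for Tg. Without control 4 and control 6 the median r with the genes was -0.05 for Ptprc, -0.01 for Cd68, 0.30 for Pecam1 and -0.12 for Tg. The relations of Ptprc depended on which animals were left out. Its 2 farthest animals were KI-treated 1 and control 4. Without them its r was 0.86 with Rsad2, 0.81 with Mx1 and 0.79 with Cxcl10, Oas1a and Gbp2. It was 0.76 with Ifi44 and 0.72 with Isg15. Over all animals these genes were at 0.11 to 0.46. The r of Cxcl9, the 1 gene that reached 0.7 over all animals, fell from 0.72 to 0.59. Parp9 and Dhx58 were at -0.27 and -0.24. Of all 128 relations between these markers and the genes, 3 were past 0.05 by Pearson's r after adjustment. They were Pecam1 with Stat2 (r = 0.80, rho = 0.75, adjusted permutation p = 0.0431 and 0.167), which fell to 0.49 without control 4 and control 6, and Ptprc with Nlrc5 (r = 0.55, rho = 0.62, adjusted permutation p = 0.0431 and 0.167) and with Psmb8 (r = 0.53, rho = 0.49, adjusted permutation p = 0.0431 and 0.309), at 0.59 and 0.57 without the 2 farthest animals. By Spearman's rho 1 relation was, that of Pecam1 with B2m (r = 0.81, rho = 0.88, adjusted permutation p = 0.0612 and 0.0307), at 0.50 without control 4 and control 6.

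Of the marker lists, 10 of 12 macrophage, 5 of 12 T cell, 3 of 9 B cell, 2 of 7 NK cell and 4 of 8 dendritic cell genes were tested. Cd3e, Cd8a and Cd2 were each well above background on 1 array. The mean of the T cell list was 3.67 above its average in KI-treated 1 and between -0.79 and 0.16 in the other 12 animals. The antiviral effectors of KI-treated 1 lay at -0.04 and its antigen processing genes at -0.19. The macrophage list ranged from -0.27 to 0.06 in the KI-treated group and from -0.24 to 0.56 in the control group, with control 4 highest and control 6 lowest of the controls. The antigen processing genes of these 2 animals lay at 0.60 and 0.45. The part of these cells in the co-variation was not tested.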

How the data were processed

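RNA from the thyroids of 13 rats was measured on one-colour arrays of 62976 features, with groups and replicate numbers taken from the sample titles and dose and age from the study's methods. In the scanner files that the authors deposited, each spot has a background-subtracted fluorescence intensity from Agilent Feature Extraction 10.7.3.1, not normalized across arrays. Log2 values of all arrays were also deposited as 1 table, and their normalization is not given in the sources used here. Its columns have medians of 7.16 to 7.30, and it served as an alternative only.

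From the processed intensity, log2 was taken, control and outlier-flagged spots were left out, spots of a probe were averaged (45598 probes) and the array's 75th percentile was subtracted. Background subtraction makes dim values unsure, so only the 25713 probes that were well above background on 6 or more arrays entered the test, by limma 3.58.1 in R 4.3.3 (lmFit and eBayes, Benjamini-Hochberg adjustment over all probes, threshold 0.05). Single genes were given an exact two-sided permutation p over the 1716 splits into 6 and 7. A gene was represented by its brightest probe. Correlations were computed in Python 3.11.15 with numpy 2.4.6 on values centred within groups, with 100000 permutations within groups. The fit and the correlations were tested on simulated data. 

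The genes and lists were chosen with earlier results of these data known. All 35 are accounted for. Shown in full are, in each role, those with the smallest exact p and the widest range, and Isg15, Irf7, Stat2, Psmb8, Tap1, B2m and Cxcl10. Pairs named are those of known partners and the 5 of largest r. The promoters printed and the remarks on Parp9 with B2m, Rtp4 and KI-treated 3 were chosen after their values were seen. Alternatives were quantile normalization, normexp (offset 50), the deposited log2 table, the filter on dim probes, slide, scan session or replicate number as a block, the methods' t-test, array weights, other probes and leaving out each array. Chosen after seeing the data were the percentile over spots, leaving out control 4 and control 6 together (also for the other lists, with each array in turn), and each group alone.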

Additional observations from a re-analysis of the deposited data

Results flagged for a closer look

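In each group the highest and the lowest animal of every gene were set against the nearest of the others, and 2 of 64 group values stood apart, where chance gives about 1 in 20. Irf1 was at 3.75 in KI-treated 3, with the next KI-treated animal at 3.39. Tap2 was at 3.02 in KI-treated 4, with the next KI-treated animal at 1.82. Neither value was saturated, and the cause was not tested.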

How the results depend on the processing

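Under every alternative run, 0 of the genes passed the adjusted threshold in limma. Usp18 stayed above 0 throughout, between 0.45 and 0.79, with a lowest adjusted p of 0.0824, as did Ifitm3, between 0.58 and 1.03, and the count of genes past an unadjusted 0.05 on the higher side was 2 or 3. The count on the lower side was 1 with all arrays and 0 with quantile normalization, the authors' log2 table, the filter on all 13 arrays, the slide block, the methods' t-test, array weights, the percentile over spots and without control 4 and control 6. With the methods' t-test 1219 probes were higher and 1923 lower at a p under 0.05 and 0 passed after Benjamini-Hochberg adjustment. The count of genes on the lower side was 0 to 1 when single arrays were left out (0 without KI-treated 5 or 6 or control 4, 5 or 7). The dimmer Psmb8 probe gave 0.56. In all, 82 of 807 values of single genes changed sign, in 16 of the 32 genes. Over all probes the calls were 50 with array weights, and 0 to 1 when single arrays were left out (1 without control 1 or control 2). The split of unadjusted calls moved from 1469 higher and 1802 lower to 1790 and 1109 with the percentile over spots, 1823 and 1432 with quantile normalization, 1886 and 1359 with the authors' table, 1166 and 3426 with normexp, 1351 and 2663 with no filter and 909 and 1710 without control 6.

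The median r of the genes was 0.33 with quantile normalization, 0.26 in the authors' table, 0.29 with no filter, 0.44 with the filter on all 13 arrays, 0.36 with the slide block, 0.31 with the scan session block, 0.28 without control 4 and control 6, 0.24 with the percentile over spots, 0.45 in control animals alone and 0.34 to 0.43 when single arrays were left out. The count of pairs at 0.7 was 64, 43, 54, 38 and 66 with quantile normalization, the authors' table, the scan session block, without control 4 and control 6 and with the percentile over spots (all pairs 3.73%, 3.34%, 5.75%, 2.86% and 4.91%), and 89 to 126 when single arrays were left out.

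Replicate numbers are shared between the groups. Same-numbered animals did not deviate together (correlations of -0.11 to 0.07, 0 of 6 nearest to their own number). These values gave no sign that the numbers pair the animals, but with 1 animal per group and number they cannot exclude it. With the replicate block 0 probes were called, 1063 higher and 1292 lower before adjustment, with 2 genes higher and 1 lower.

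Arrays limit the precision: 6 against 7 animals, and values of dim probes such as Cxcl9 and Tbk1 depend on background subtraction.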
